A study of Mus musculus with 4 samples.

Results

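The collagen genes of the mouse were followed through the cells of the injured liver, to see which cells carried the RNA of which chain and how each chain stood in CKO livers against WT livers. The members were all genes whose symbol is Col, a number, a and a number, which gave 44 of the 32285 genes in the count matrices. The rule reads gene symbols and no measured value, and the family was taken up with earlier results of these data known. The CKO livers came from mice with a knockout of Rbpj that the labels place in hepatic progenitor cells, and the WT livers came from wild-type mice. All animals were male, began a diet with DDC (3,5-diethoxycarbonyl-1,4-dihydrocollidine, a porphyrinogenic compound that injures the bile ducts) at 10-11 weeks of age and ate it for 4 weeks, and no liver without the diet is analysed here. The nuclei were isolated from frozen tissue whose homogenate had received formaldehyde, and 2 CKO and 2 WT libraries were sequenced by droplet single-nucleus RNA-seq. The labels do not give the driver of the Cre recombinase or the exons removed, and do not say whether the libraries of a group are separate animals or pools, so that every p below measures the spread between libraries.

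Collagens are triple helices of 3 chains that are made in the endoplasmic reticulum and secreted. Fibrillar collagens form the rope-like fibres of scar tissue, and the fibril-associated FACIT collagens lie on their surface. Type IV chains form the sheet of basement membranes under epithelium and endothelium, type VI forms beaded filaments, type VIII forms short-chain networks, and other collagens span the cell membrane or carry glycosaminoglycan chains. In the injured liver, hepatic stellate cells and portal fibroblasts are known as the main makers of fibrillar collagen.

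The CKO libraries held 16000 and 5184 barcodes with 38003108 and 12261329 UMIs (unique molecules counted), and the WT libraries 16000 and 6480 barcodes with 45620141 and 13914845 UMIs. Of 43664 barcodes, 39017 were kept after doublet removal, and 333 barcode sequences occurred in more than 1 library. Clustering without collagen genes and against lists of markers named 15705 of the kept barcodes, 4317 and 526 in CKO livers and 8522 and 2340 in WT livers. The other 23312 stayed unnamed, among them a cluster of 920 CKO replicate 1 barcodes and one of 1639 CKO replicate 2 barcodes that hold hepatocyte RNA. The libraries stood apart in several classes. In the endothelial-like class, 855 of 906 nuclei of CKO replicate 1 lay in a cluster with few nuclei of the other libraries (9 of CKO replicate 2, 65 of WT replicate 1 and 11 of WT replicate 2), whereas most nuclei of those libraries lay in another. The macrophage-like nuclei of CKO replicate 1, of WT replicate 1 and of the other pair of libraries lay mostly in 3 different clusters. Rbpj, the DNA-binding partner of the Notch receptors' intracellular part, had 73.2 and 15.8 CPM (UMIs per 1000000 UMIs of the class in that library) in cholangiocyte-like nuclei of CKO livers (109 UMIs and 1 UMI) and 78.7 and 66.2 in WT livers (347 and 43 UMIs). Over all kept barcodes it had 54.4 and 34.1 CPM in CKO livers and 76.5 and 42.8 in WT livers. Counts of 3' ends do not check a deletion whose exons are unknown, so the knockout itself was not checked.

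The kept barcodes held 70763 collagen UMIs, which was 580 and 524 CPM in CKO livers and 933 and 645 CPM in WT livers. Col9a1 had none, 8 other members had fewer than 20 UMIs, and 23 members could be placed. A member was placed when its highest class held at least 20 of its UMIs and at least 1.5 times its low-UMI level. That level was read in the 10% of barcodes with the fewest UMIs, used as a measure of free RNA. Their median was 1838 and 1562 UMIs in CKO libraries and 1840 and 1480 in WT libraries. All kept barcodes had a median of 2031 and 1886 in CKO libraries and 2243 and 1709 in WT libraries. Low-UMI barcodes may thus hold nuclei, which was not tested. The mesenchymal-like class was highest for 13 of the 23, the mesothelial-like class for 4, the hepatocyte-like and endothelial-like classes for 2 each, and the macrophage-like and cholangiocyte-like classes for 1 each. For 12 of the 23 the class was highest in each library that held it. The 21 members not placed were those 9, Col18a1, whose highest class stayed under 1.5 times the low-UMI level, and 11 genes whose highest class held fewer than 20 of their UMIs, among them Col7a1, Col12a1, Col16a1, Col17a1 and Col25a1. Col16a1 had its highest mean on 6 UMIs of mesothelial-like nuclei, while 53.0% of its UMIs in named nuclei lay in cholangiocyte-like nuclei. All class levels are CPM of summed UMIs in each library, given as mean ± SD over the libraries of both genotypes with at least 10 nuclei. They are not per length, so a level is compared between classes for 1 gene and not between genes. The classes were made from the same nuclei, so their levels are a description with no test.

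**Figure D1:**
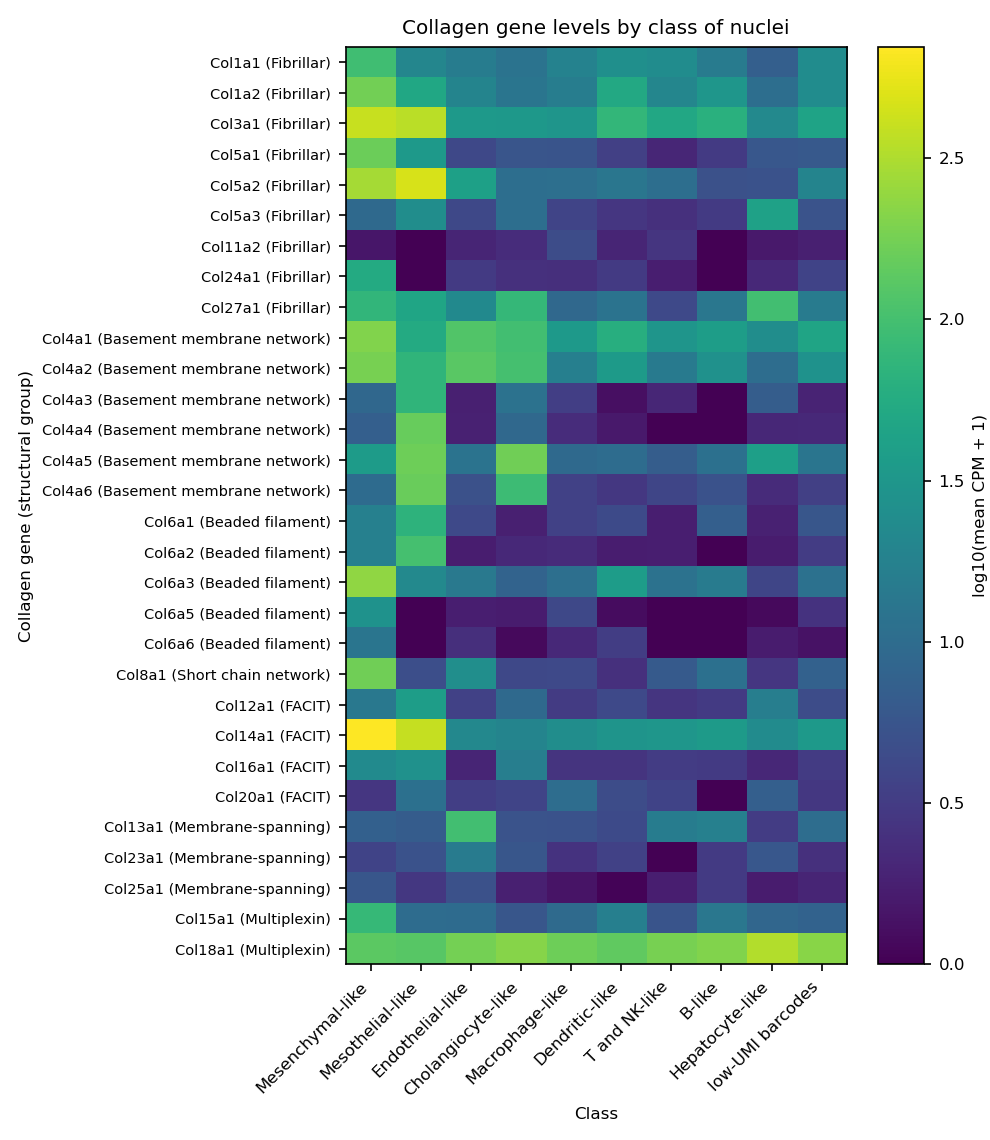
Mean level of the 30 collagen genes with at least 100 UMIs (rows, with their structural group) in each class of nuclei and in the low-UMI barcodes (columns), as log10 of CPM plus 1. The mesenchymal-like column holds most of the bright fibrillar cells, and Col4a4 and Col4a6 are brightest in the mesothelial-like column. Col18a1 is bright in each column, with 134 in mesenchymal-like nuclei and its highest value, 327, in hepatocyte-like nuclei.

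Mesenchymal-like nuclei, 404 and 89 in CKO livers and 686 and 202 in WT livers, held 40.7% of the fibrillar, 64.2% of the type VI, 61.8% of the FACIT and 65.7% of the short-chain collagen UMIs of all named nuclei. Unnamed barcodes, left out of these shares, held 6665 fibrillar, 927 type VI, 1784 FACIT and 222 short-chain UMIs. The same 4 groups had 5375, 1305, 3065 and 801 UMIs in mesenchymal-like nuclei. Col14a1, a FACIT chain that binds to fibril surfaces, was at 698 ± 156 CPM there (n = 4), against 387 in mesothelial-like nuclei and 33.5 in low-UMI barcodes. Col3a1, the chain of type III fibrils, was at 402 ± 199 in mesenchymal-like nuclei and 357 in mesothelial-like nuclei, which do not differ beyond their spread. The type I chains Col1a1 and Col1a2, which join in one trimer, were at 93.9 and 173 CPM in this class, and 371 Col1a1 UMIs stood beside 726 of Col1a2. That ratio of 0.511 in mesenchymal-like nuclei compares with 0.990 in macrophage-like nuclei, where both are low. Col5a1, a type V chain that starts fibrils, was at 161 ± 21.7. Col6a3, the long chain of type VI, was at 237 ± 69.8, and Col24a1, a fibrillar chain known from bone, at 54.0 ± 13.1.

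Within the mesenchymal-like class, stellate-like nuclei (118 and 22 in CKO livers, 272 and 61 in WT livers) and portal fibroblast-like nuclei (61 and 2 in CKO livers, 159 and 45 in WT livers) carried different sets of chains. CKO replicate 2 gives no portal fibroblast level, because 2 nuclei are too few. The summed level of 10 portal fibroblast markers was 119 CPM in portal fibroblast-like nuclei of CKO replicate 1 and 318 and 339 in WT livers. In stellate-like nuclei it was 70.1 and 23.7 in CKO livers and 86.5 and 63.0 in WT livers. Cholangiocyte-like nuclei had 173 and 317 in CKO livers and 287 and 229 in WT livers, and mesothelial-like nuclei more. A sub-cluster of endothelial-like nuclei led by arterial genes, described below, had 173 in CKO replicate 1 and 444 and 480 in WT livers. These markers thus set the portal fibroblast-like nuclei apart from stellate-like nuclei but not from those other sets. Col8a1, a short chain of vessel walls and matrix, was at 477 CPM in portal fibroblast-like nuclei of CKO replicate 1, against 906 and 536 in WT livers. In stellate-like nuclei Col8a1 had 19.1 and 0 CPM in CKO livers (6 UMIs and 0) and 36.0 and 0 in WT livers. Each portal fibroblast value thus lay above each stellate value of Col8a1. Col15a1, a proteoglycan-like collagen of the zone beside basement membranes, was likewise at 257 in portal fibroblast-like nuclei of CKO replicate 1 and at 327 and 262 in WT livers, with a mean of 15.6 in stellate-like nuclei. Over the 3 libraries, portal fibroblast-like nuclei averaged 837 for Col3a1, 541 for Col6a3, 395 for Col1a2 and 205 for Col1a1. The stellate-like means over 4 libraries were 265 for Col3a1, 119 for Col6a3, 85.5 for Col1a2 and 36.3 for Col1a1. Col14a1 ran the other way, at 822 and 900 CPM in stellate-like nuclei of CKO livers and 1206 and 905 in WT livers, and at 458 in portal fibroblast-like nuclei of CKO replicate 1 and 448 and 350 in WT livers. Col24a1 was at 76.5 and 71.0 in stellate-like nuclei of CKO livers and 87.8 and 63.0 in WT livers, while portal fibroblast-like nuclei held 1 UMI in CKO replicate 1 and 5 UMIs and 1 UMI in the WT livers. The 2 type V chains differed in their balance, with 0.992 Col5a1 UMIs for each Col5a2 UMI in stellate-like nuclei and 0.244 in portal fibroblast-like nuclei.

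**Figure D2:**
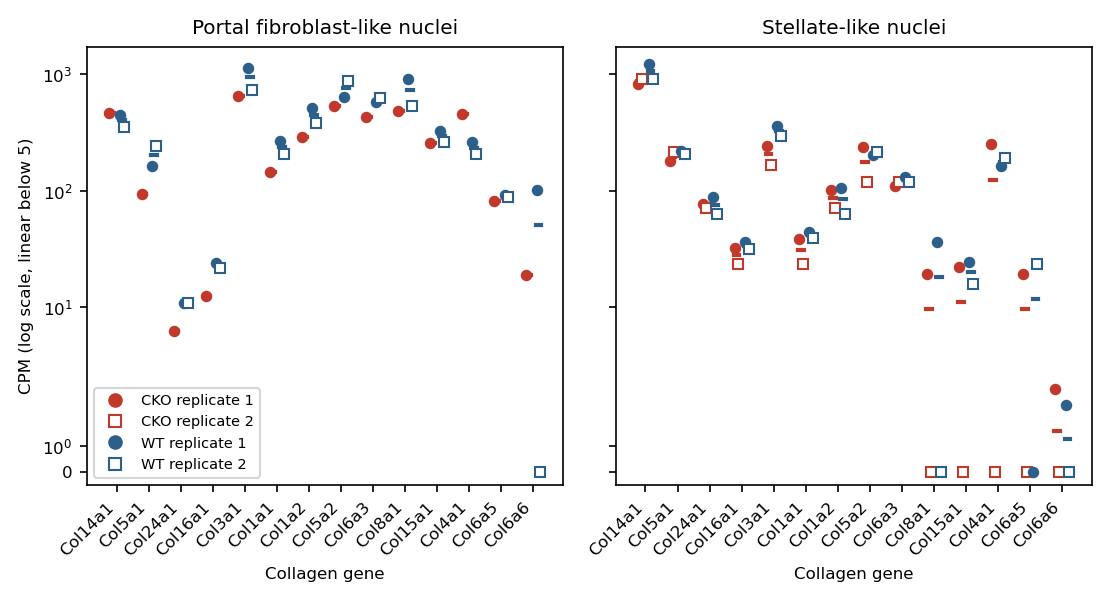
Level of 14 collagen genes (x axis) in portal fibroblast-like nuclei (left) and stellate-like nuclei (right), in CPM on a scale that is logarithmic above 5 and linear below, with 1 symbol per library and a short bar at the group mean. Libraries with fewer than 10 nuclei are not drawn, which leaves out CKO replicate 2 on the left, where Col8a1 reaches 477 to 906 CPM.

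Mesothelial-like nuclei, the covering layer of the liver surface, were few: 12 and 22 in CKO livers and 49 and 17 in WT livers. They were highest for Col5a2, the partner of Col5a1, at 467 ± 193 CPM (723 and 351 in CKO livers, 289 and 505 in WT livers), with 291 in mesenchymal-like nuclei. Col6a2, which pairs with Col6a1 and Col6a3 in type VI trimers, was at 101 ± 30.5. Col4a4 was at 28.9 and 83.6 in mesothelial-like nuclei of CKO livers and 350 and 140 in WT livers, a mean of 151 ± 141, and cholangiocyte-like nuclei averaged 8.14. Col4a3, its partner in the type IV trimer with Col4a5, had 19 UMIs in the mesothelial-like class beside 57 of Col4a4 and was not placed. By UMIs of named nuclei the larger part lay in cholangiocyte-like nuclei, with 43.6% of Col4a3 and 32.9% of Col4a4. Mesothelial-like nuclei held 8.12% and 26.8%. The Col4a4 levels rest on 1 and 5 UMIs in CKO livers and 46 and 5 in WT livers, and no test was run.

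The type IV chains come in 3 head-to-head gene pairs, and the pairs differed in the classes that carried them. Col4a1 and Col4a2, the chains of the common basement membrane trimer, were at 199 and 182 CPM in mesenchymal-like nuclei, 118 and 130 in endothelial-like nuclei and 96.0 and 101 in cholangiocyte-like nuclei, with 45 and 27.1 in low-UMI barcodes. The endothelial-like class held 821 Col4a1 UMIs and 835 Col4a2 UMIs, a ratio of 0.983, and the ratio was 1.14 in mesenchymal-like and 1.20 in cholangiocyte-like nuclei. Col4a5 and Col4a6, partners in the trimer of some epithelial basement membranes, were the chains of cholangiocyte-like and mesothelial-like nuclei. Col4a5 was at 169 ± 32.1 in the first class (179 and 127 in CKO livers, 204 and 166 in WT livers) and 164 in the other, which do not differ beyond their spread, and at 20.2 and 22.9 in mesenchymal-like nuclei of CKO livers and 46.5 and 51.1 in those of WT livers. Col4a6 was at 155 ± 41.5 in mesothelial-like and 87.1 in cholangiocyte-like nuclei. Their ratio was not fixed: 1279 Col4a5 UMIs stood beside 676 of Col4a6 in cholangiocyte-like nuclei, a ratio of 1.89, against 0.891 in mesothelial-like nuclei and 13.8 in hepatocyte-like nuclei. The last of these rests on 33 Col4a6 UMIs in 2981 nuclei, so free RNA may make up much of it, which was not tested. Low-UMI barcodes averaged 2.48 CPM of Col4a6. By gene ends in GENCODE annotation, the starts of Col4a1 and Col4a2 overlap by 22 bases. Those of Col4a3 and Col4a4 lie 71 bases apart and those of Col4a5 and Col4a6 1308 bases apart. Whether reads were counted by strand is not given in the sources used here.

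The start regions of Col4a1 with Col4a2 and of Col4a5 with Col4a6 are shown because the genes of each pair are transcribed away from each other, from RefSeq on build GRCm38.p6, 250 bases before to 50 bases after the start, 5′ to 3′ on the gene's own strand. Capitals mark exact matches on either strand. The letters searched were TATAAA for the TATA box, then CCAAT for the box of that name, then GGGCGG for the GC box, and last TGGGAA for the core of the RBPJ motif, and no matches overlap in the windows printed. The windows are chr8:11312777-11313076 (minus strand) for Col4a1, chr8:11312555-11312854 (plus strand) for Col4a2, chrX:141475169-141475468 (plus strand) for Col4a5 and chrX:141474027-141474326 (minus strand) for Col4a6.
Col4a1: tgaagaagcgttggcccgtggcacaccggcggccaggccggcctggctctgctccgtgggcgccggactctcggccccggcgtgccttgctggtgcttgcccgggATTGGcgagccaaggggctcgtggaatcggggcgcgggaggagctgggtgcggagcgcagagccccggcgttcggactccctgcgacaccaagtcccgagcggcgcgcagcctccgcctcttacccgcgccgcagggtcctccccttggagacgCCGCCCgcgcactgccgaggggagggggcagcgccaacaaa
Col4a2: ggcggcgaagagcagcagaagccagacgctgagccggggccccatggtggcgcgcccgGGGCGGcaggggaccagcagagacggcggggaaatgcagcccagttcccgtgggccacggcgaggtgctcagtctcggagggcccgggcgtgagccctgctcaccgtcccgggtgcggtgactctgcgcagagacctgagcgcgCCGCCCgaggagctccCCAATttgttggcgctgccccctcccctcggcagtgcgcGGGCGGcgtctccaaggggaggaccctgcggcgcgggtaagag
Col4a5: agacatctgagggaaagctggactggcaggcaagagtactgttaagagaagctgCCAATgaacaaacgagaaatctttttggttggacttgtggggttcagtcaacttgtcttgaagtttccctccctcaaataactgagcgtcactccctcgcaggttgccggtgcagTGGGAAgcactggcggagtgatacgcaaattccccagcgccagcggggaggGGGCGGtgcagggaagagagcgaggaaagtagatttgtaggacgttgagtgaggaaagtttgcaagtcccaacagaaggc
Col4a6: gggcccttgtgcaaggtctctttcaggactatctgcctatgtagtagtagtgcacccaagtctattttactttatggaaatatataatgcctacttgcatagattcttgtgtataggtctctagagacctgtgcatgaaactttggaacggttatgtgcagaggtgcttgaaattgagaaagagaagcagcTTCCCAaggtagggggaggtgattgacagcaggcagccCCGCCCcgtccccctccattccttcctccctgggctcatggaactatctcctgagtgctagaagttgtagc
The first pair of windows shares 78 bases and holds a CCAAT box 145 bases before the Col4a1 start and 32 bases before the Col4a2 start. The letters TGGGAA occur 81 bases before the Col4a5 start and 59 bases before the Col4a6 start, and in neither window of the first pair. Of the remaining pair the window of Col4a4 holds none of the 4 motifs. Windows were found for 35 of the 44 genes, with several starts for some. TGGGAA was in 12 of 38 collagen windows (31.6%) and in 25.6% of all 32851 windows, CCAAT in 34.2% and 37.4%, TATAAA in 13.2% and 13.6%, and GGGCGG in 60.5% and 35.7%. These matches are letters only and show no binding.

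Endothelial-like nuclei, 906 and 152 in CKO livers and 1353 and 241 in WT livers, were the highest class for the membrane-spanning collagens Col13a1 and Col23a1 and held 63.2% of the membrane-spanning collagen UMIs of named nuclei. Col13a1, a transmembrane collagen of cell adhesion sites, was at 96.0 ± 51.8 CPM there, with 9.48 in low-UMI barcodes. Col23a1 was at 14.4 in the class, and its level was highest in a small lymphatic-like set of 3 and 0 nuclei in CKO livers and 23 and 5 in WT livers. There CKO replicate 1 held 3 Col23a1 UMIs, and the WT livers held 43 and 6 UMIs, or 660 and 581 CPM. Col8a1 averaged 24.4 in endothelial-like nuclei, and vessel-like nuclei held 204 of its 227 UMIs in the class.

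Hepatocyte-like nuclei numbered 8 and 30 in CKO livers and 1811 and 1132 in WT livers, because the hepatocyte-rich clusters of the CKO libraries stayed unnamed, so no CKO against WT test was run there. Col27a1, a fibrillar chain known from cartilage, was at 94.2 ± 39.4 CPM over the 3 libraries with 10 or more nuclei, close to 77.8 in cholangiocyte-like nuclei, with 14.4 in low-UMI barcodes. The 2 unnamed clusters of the CKO libraries differed, at 12.6 in that of replicate 1 and 78.4 in that of replicate 2. Col5a3, the third type V chain, was at 43.9 in CKO replicate 2 and 39.9 and 40.3 in WT livers, and the unnamed clusters had 28.4 and 52.9. The value of CKO replicate 2 rests on few UMIs, because its hepatocyte-like nuclei held 91160 UMIs of all genes. In that library alone, mesothelial-like nuclei were highest for Col5a3. Col18a1, whose C-terminal part is known as endostatin and which the liver makes strongly, had 22936 UMIs, the most of any collagen. It was at 327 ± 94.7 in hepatocyte-like nuclei and at 358 and 360 in the 2 unnamed clusters. Low-UMI barcodes had 220 CPM of Col18a1, and its levels of 134 to 210 in mesenchymal-like, macrophage-like, endothelial-like and cholangiocyte-like nuclei lay below that. Col11a2 was highest in macrophage-like nuclei at 3.61 ± 3.05, on 41 UMIs.

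CKO and WT livers were compared in each class with at least 20 nuclei in every library, by edgeR's quasi-likelihood test on summed UMIs over all genes with Benjamini-Hochberg adjustment. In such sums, fewer cells of a kind within a class and less RNA per cell cannot be told apart. Collagen RNA in the low-UMI barcodes differed in the same direction, with Col1a1 at 17.7 and 9.89 CPM in CKO livers and 39.7 and 25.0 in WT livers, and Col13a1 at 6.12 and 3.71 in CKO livers and 17.7 and 10.4 in WT livers. The part of free RNA in the class values was not tested. No collagen passed an adjusted p of 0.05 in any class. The share of kept nuclei that were mesenchymal-like was 2.90% and 1.79% in CKO livers and 4.92% and 3.29% in WT livers (log2 change -0.81, edgeR adjusted p = 0.930), and the part of that share in the collagen total of a library was not tested. The cholangiocyte-like share was 3.60% and 0.624% in CKO livers and 10.1% and 4.88% in WT livers (log2 change -1.83, edgeR adjusted p = 0.819).

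In mesenchymal-like nuclei 20 of the 44 members were tested. None was called by edgeR, as were 0% of the 8656 genes, and DESeq2 called no collagen and 1 gene. At an unadjusted p under 0.05 stood 7 of the 20, beside 649 genes in all. The log2 change, CKO over WT, was below 0 for 17 of the 20 against 49.1% of all genes, with a median of -0.53 against 0.01. Both CKO libraries lay below both WT libraries for 13 of the 20, against 27.3% of all genes, and above them for 1, against 9.63%. Col8a1 was at 131 and 40.2 CPM in CKO livers and 280 and 221 in WT livers. Its log2 change was -1.22 (SE 0.37, edgeR adjusted p = 0.476), without overlap of the groups. Col1a2 was at 132 and 91.8 in CKO livers and 236 and 230 in WT livers (log2 change -0.85, SE 0.27, edgeR adjusted p = 0.497). Its partner Col1a1 was at 57.6 and 80.3 in CKO livers and 124 and 114 in WT livers (log2 change -0.75, SE 0.29, edgeR adjusted p = 0.589). Col3a1 was at 344 and 184 in CKO livers and 661 and 418 in WT livers (log2 change -0.83, SE 0.33, edgeR adjusted p = 0.609). In these 3 main fibrillar genes the CKO libraries were the lower ones, and the WT libraries differed among themselves most for Col3a1. Col6a3 was at 176 and 184 in CKO livers and 320 and 270 in WT livers, and Col15a1 at 68.1 and 17.2 in CKO livers and 113 and 121 in WT livers. Col5a2 was at 297 and 115 in CKO livers and 369 and 383 in WT livers. Col27a1 had 32.6 and 68.8 CPM in CKO livers and 117 and 74.4 in WT livers (log2 change -1.11, SE 0.38, edgeR adjusted p = 0.545). Col24a1 was the only collagen with both CKO libraries above both WT libraries, at 57.6 and 68.8 against 52.5 and 37.2 (log2 change 0.52, SE 0.30, edgeR adjusted p = 0.774). Col4a5, a low gene of this class, had a log2 change of -1.06 (SE 0.36, edgeR adjusted p = 0.545). The groups overlapped for Col14a1, at 702 and 585 in CKO livers and 917 and 588 in WT livers, and for Col4a1 and Col4a2, with log2 changes of -0.05, -0.04 and 0.02. The calls turned on single libraries, for collagens and for other genes. As each library was left out, the log2 change of Col8a1 ranged from -2.41 to -0.86 and the collagen median from -0.67 to -0.56. In such fits the lone library of a group is assumed to vary like the other group.

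**Figure D3:**
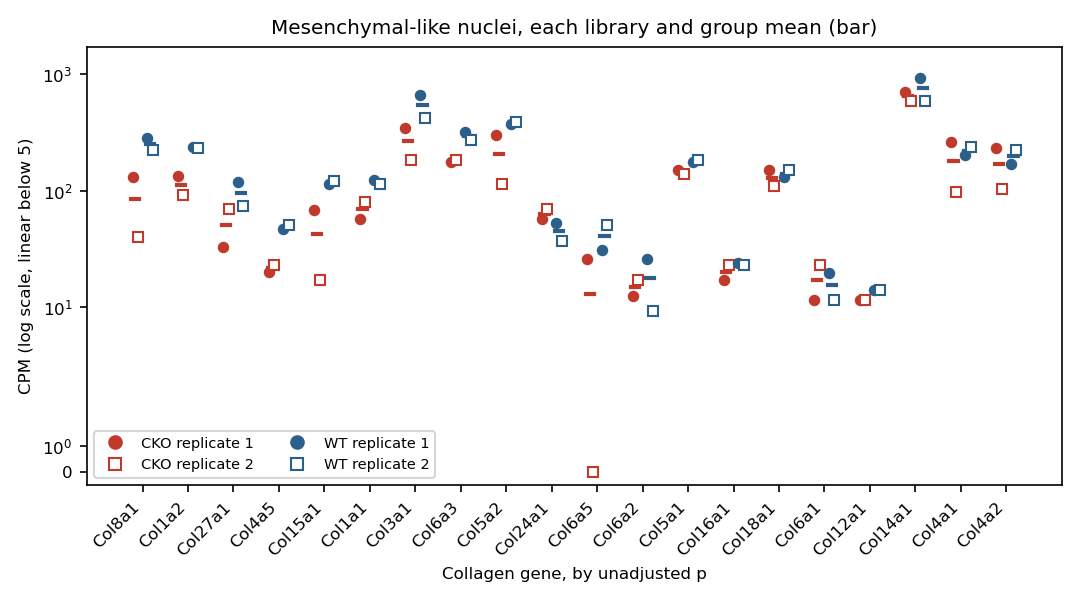
Level of the 20 tested collagen genes in mesenchymal-like nuclei of each library, in CPM on a scale that is logarithmic above 5 and linear below, with genes ordered by unadjusted p and a short bar at each group mean. For Col8a1, Col1a2, Col1a1 and Col3a1 both CKO symbols lie below both WT symbols, and for Col24a1 both lie above.

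The make-up of the class moved with these values. Portal fibroblast-like nuclei were 15.1% and 2.25% of mesenchymal-like nuclei in CKO livers and 23.2% and 22.3% in WT livers. The summed level of 10 portal fibroblast markers in the class was 86.4 and 45.9 CPM in CKO livers and 171 and 165 in WT livers, with both CKO libraries below both WT libraries for 6 of the 10. The summed CPM of 9 hepatocyte genes was 32935 and 23846 in mesenchymal-like nuclei of CKO livers and 18888 and 19188 in those of WT livers. That of 10 cholangiocyte markers was 1226 and 602 in mesenchymal-like nuclei of CKO livers and 1736 and 1452 in those of WT livers, with both CKO libraries below both WT libraries for 9 of the 10. Col4a5 itself was about as high in mesothelial-like as in cholangiocyte-like nuclei. Sub-clusters led by genes of other classes took part of the class, and 63.6% and 51.7% of its nuclei in CKO livers and 82.2% and 70.3% in WT livers remained without them. Without these sub-clusters, an alternative chosen after seeing the data, the collagen median was -0.28 and the log2 changes were -0.97 for Col8a1, -0.68 for Col3a1, -0.58 for Col4a5, -0.54 for Col1a2 and -0.27 for Col1a1. Scaled to the 1048 genes at least 3 times higher in mesenchymal-like nuclei than in low-UMI barcodes, whose own median was -0.21, the median of 19 collagens was -0.36 where it had been -0.57. The part of each of these measures in the collagen values was not tested. In stellate-like nuclei 11 collagens were tested, 0% of 4186 genes were called, and the collagen median was -0.01 against -0.01 for all genes. There edgeR and DESeq2 called no collagen, 0 of the 11 and 204 of all genes had an unadjusted p under 0.05, and both CKO libraries lay below both WT libraries for 2 of the 11, against 19.1% of genes. One of these was Col3a1, at 242 and 166 CPM in stellate-like nuclei of CKO livers and 359 and 291 in those of WT livers (log2 change -0.53). Col1a2, by contrast, had a log2 change of 0.13 and Col14a1 one of -0.22.

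In endothelial-like nuclei 15 members were tested, and edgeR called none of them and 0% of the 10110 genes, while DESeq2 called no collagen and 1 gene. At an unadjusted p under 0.05 stood 5 of the 15, beside 520 genes. The median log2 change was -0.56 against 0.01 for all genes, and 10 of the 15 were below 0, against 49.3% of all genes. Both CKO libraries lay below both WT libraries for 7 of the 15, against 28% of all genes. Col8a1 had the lowest unadjusted p of the collagens, 7.9e-05, with 3.91 and 0 CPM in CKO livers and 64.3 and 29.4 in WT livers (log2 change -3.72, SE 0.56, edgeR adjusted p = 0.247). Col13a1 was at 45.4 and 58.4 CPM in CKO livers (93 and 16 UMIs) and 131 and 149 in WT livers (420 and 66 UMIs). Its log2 change was -1.31 (SE 0.32, edgeR adjusted p = 0.823), and the groups did not overlap. The starts of both genes are printed as the strongest differences by unadjusted p in this class, at chr16:57754688-57754987 (minus strand) for Col8a1 and chr10:61979059-61979358 (minus strand) for Col13a1, from the same RefSeq table and with the same capitals.
Col8a1: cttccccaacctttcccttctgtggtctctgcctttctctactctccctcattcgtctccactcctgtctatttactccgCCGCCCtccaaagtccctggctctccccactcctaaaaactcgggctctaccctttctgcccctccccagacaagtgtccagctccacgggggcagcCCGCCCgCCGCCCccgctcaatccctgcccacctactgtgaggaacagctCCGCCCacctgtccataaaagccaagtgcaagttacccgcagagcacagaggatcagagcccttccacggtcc
Col13a1: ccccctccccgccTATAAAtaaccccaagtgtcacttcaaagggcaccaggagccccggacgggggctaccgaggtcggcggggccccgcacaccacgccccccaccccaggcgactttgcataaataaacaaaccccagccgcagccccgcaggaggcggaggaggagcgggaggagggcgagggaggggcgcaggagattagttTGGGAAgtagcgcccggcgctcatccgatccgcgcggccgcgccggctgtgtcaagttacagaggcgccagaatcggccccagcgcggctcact
Col8a1 has GC boxes 170, 73, 66 and 23 bases before its start and no TGGGAA, and Col13a1 has TGGGAA 44 bases and TATAAA 237 bases before its start. The 2 basement membrane genes of the endothelium did not follow this direction: Col4a2 was at 142 and 128 CPM in CKO livers and 145 and 104 in WT livers (log2 change 0.32), and Col4a1 at 135 and 94.8 in CKO livers and 149 and 95 in WT livers (log2 change 0.14). Col23a1 was at 4.39 and 10.9 CPM in CKO livers and 24.4 and 18.1 in WT livers (log2 change -1.81, SE 0.56, edgeR adjusted p = 0.876). Of its 98 UMIs in the class 52 lay in lymphatic-like nuclei, which were 0.331% and 0% of endothelial-like nuclei in CKO livers and 1.70% and 2.07% in WT livers. Without that set, an alternative chosen after seeing the data, Col23a1 was at 2.94 and 10.9 CPM in CKO livers and 11.2 and 4.63 in WT livers, which overlap (log2 change -0.91). Col5a2 was at 35.2 and 3.65 CPM in CKO livers and 85.6 and 36.2 in WT livers, and Col1a1 at 8.30 and 0 in CKO livers and 28.1 and 22.6 in WT livers. The groups did not overlap for either gene. Low-UMI barcodes averaged 23.1 CPM of Col1a1, so its endothelial-like values cannot be told apart from the level of those barcodes. Here too the calls turned on single libraries, and the collagen median ranged from -0.83 to -0.29 as each library was left out.

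The endothelial Col8a1 UMIs came from vessel-like nuclei, 178 and 23 in CKO livers and 273 and 47 in WT livers. They held 5 and 0 UMIs of Col8a1 in CKO livers and 187 and 12 in WT livers. This was 12.8 CPM (95% Poisson interval 4.16 to 29.9) and 0 (up to 88.6) in CKO livers and 296 (255 to 341) and 140 (72.3 to 244) in WT livers, with intervals that cover counting error only. The log2 change in vessel-like nuclei was -4.17 (SE 0.57, edgeR adjusted p = 0.0768). Of 7 collagens tested there edgeR called none, 0% of 4468 genes were called, DESeq2 called none, and an unadjusted p under 0.05 was reached by 2 collagens and 267 genes. The Col8a1 call depended on the settings: its edgeR adjusted p was 0.0476 with RLE scaling, 5.7e-05 with WT replicate 2 left out and 0.998 with WT replicate 1 left out, and over all settings tried it lay between 3.05e-11 and 0.998. A sub-cluster of the vessel-like nuclei, led by the arterial genes Bmx and Gja5 with Npr3, Dkk2 and Slit3, held most of them: 2 UMIs in 19 nuclei of CKO replicate 1 (43.3 CPM, 5.24 to 156), and 181 and 10 UMIs in 86 and 16 nuclei of the WT livers (855 and 343 CPM). CKO replicate 2 had 1 nucleus in it. That sub-cluster was 2.10% and 0.658% of endothelial-like nuclei in CKO livers and 6.36% and 6.64% in WT livers. The summed level of 8 vessel markers in vessel-like nuclei was 1900 and 816 CPM in CKO livers and 3255 and 3171 in WT livers, with 7 of the 8 lower in both CKO libraries, and that of 9 hepatocyte genes was 41816 and 30176 in CKO livers and 24236 and 24025 in WT livers. The part of this share and of these sums in the Col8a1 values was not tested.

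Col13a1 differed in the same direction in each endothelial set tested. It was at 41.0 and 72.0 CPM in vessel-like nuclei of CKO livers and 115 and 128 in those of WT livers (log2 change -1.20). Both CKO libraries lay below both WT libraries for 4 of the 7 collagens tested in vessel-like nuclei, against 24.3% of all genes there. In central vein-like nuclei, too few for a test, Col13a1 was at 21 and 49 CPM in CKO livers and 114 and 149 in WT livers. These nuclei were 83 and 11 in CKO livers and 144 and 39 in WT livers. In CKO replicate 2, central vein-like nuclei held 20389 UMIs of all genes and vessel-like nuclei 41656. That library held 16 Col13a1 UMIs in the whole endothelial-like class, so its value in each set within the class rests on few. Counting error alone was not set against the gap between the groups. In the unnamed sub-clusters numbered 3, 6 and 7 the log2 changes of Col13a1 were -1.28, -1.28 and -1.94, with edgeR adjusted p near 1. In those 3 sets edgeR called no collagen and 0% of genes, 1 of the 4 collagens tested in each had an unadjusted p under 0.05, beside 151, 110 and 111 genes in all, and DESeq2 called no collagen. Col13a1 did not overlap between the groups in any of the 3, as held for 22.6%, 22.1% and 24.9% of all genes in this direction. These sets are parts of one class in the same libraries and are not independent of each other. Over the endothelial-like class, the summed CPM of 10 endothelial markers was 4051 and 4305 in CKO livers and 6675 and 5329 in WT livers, and 7 of the 10 were lower in both CKO libraries. That of the hepatocyte genes was 39494 and 28381 in endothelial-like nuclei of CKO livers and 23923 and 22501 in those of WT livers. Scaled to the 723 genes at least 3 times higher in endothelial-like nuclei than in low-UMI barcodes, whose own median was -0.27, the log2 change of Col13a1 was -1.05. The part of these measures in the Col13a1 values was not tested.

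**Figure D4:**
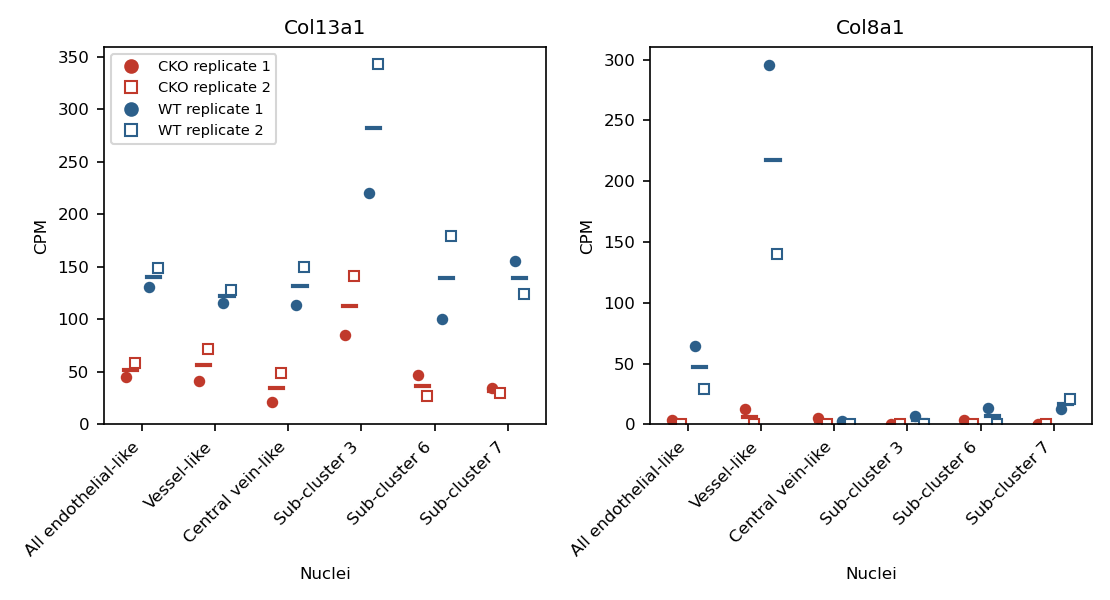
Level of Col13a1 (left) and Col8a1 (right) in CPM in all endothelial-like nuclei and in sets within them, with 1 symbol per library and a bar at the group mean. Both CKO symbols of Col13a1 lie below both WT symbols in each set drawn, and Col8a1 reaches 296 and 140 in vessel-like nuclei of the WT livers against 12.8 and 0 in those of the CKO livers. The CKO replicate 2 symbols of Col13a1 rest on 16 UMIs in all endothelial-like nuclei and on a part of these in each set.

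In cholangiocyte-like nuclei, 502 and 31 in CKO livers and 1414 and 300 in WT livers, 16 members were tested and none was called, beside 0.194% of the 10286 genes called by edgeR and none called by DESeq2. At an unadjusted p under 0.05 stood 1 of the 16 and 612 genes in all. The median log2 change was -0.23 against -0.03 for all genes, 11 of the 16 were below 0 against 54.1% of all genes, and both CKO libraries lay below both WT libraries for 5 of the 16, against 20.7% of all genes. The log2 changes of the type IV chains were -0.13 for Col4a5 (-0.60 to -0.012 as single libraries were left out), -0.06 for Col4a6, 0.19 for Col4a1 and 0.06 for Col4a2. Col4a6 was at 101 and 47.5 CPM in CKO livers and 105 and 95.4 in WT livers, and the value of CKO replicate 2 is 3 UMIs in 31 nuclei. The summed CPM of 10 cholangiocyte markers in the class was 5307 and 5337 in CKO livers and 6901 and 6019 in WT livers, with 7 of the 10 lower in both CKO libraries. That of 9 hepatocyte genes was 28866 and 24513 in CKO livers and 17874 and 18342 in WT livers, and the part of either in the collagen values was not tested. The 1 collagen past the unadjusted limit was Col1a2, a low gene in this class at 9.40 and 0 CPM in CKO livers and 29.3 and 7.69 in WT livers, with 23.4 on average in low-UMI barcodes (log2 change -1.29, SE 0.56, edgeR adjusted p = 0.731). The groups overlapped for Col3a1, which had 44.0 CPM in low-UMI barcodes, at 24.8 and 31.7 CPM in CKO livers and 43.6 and 26.2 in WT livers. Col5a3 was at 9.40 and 15.8 CPM in CKO livers and 4.31 and 9.23 in WT livers, on 14 UMIs and 1 UMI in CKO livers and 19 and 6 UMIs in WT livers.

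In macrophage-like nuclei, 2195 and 168 in CKO livers and 1610 and 372 in WT livers, 16 members were tested and edgeR called none, with 0% of 11725 genes called, while DESeq2 called no collagen and 2 genes. Unadjusted p was under 0.05 for 2 of the 16, Col27a1 (log2 change -1.35) and Col1a1 (-0.85), and for 534 genes. Col27a1 was at 3.97 and 6.38 CPM in CKO livers and 15.9 and 5.91 in WT livers, which overlap. Col1a1 was at 13.9 and 6.38 in CKO livers and 28.3 and 20.7 in WT livers. That is on a par with the 23.1 CPM of low-UMI barcodes and cannot be told apart from it. Below 0 were 12 of the 16, against 50.1% of all genes, and both CKO libraries lay below both WT libraries for 5 of the 16, against 23.8%. Over all kept barcodes 32 members were tested, edgeR called none and 0% of 16794 genes, and DESeq2 called no collagen and 1 gene. There 0 of the 32 and 242 of all genes had an unadjusted p under 0.05. The median was -0.61 against 0.04, 25 of the 32 were below 0 against 44.6% of all genes, and both CKO libraries lay below both WT libraries for 15 of the 32, against 19.7% of all genes.

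**Figure D5:**
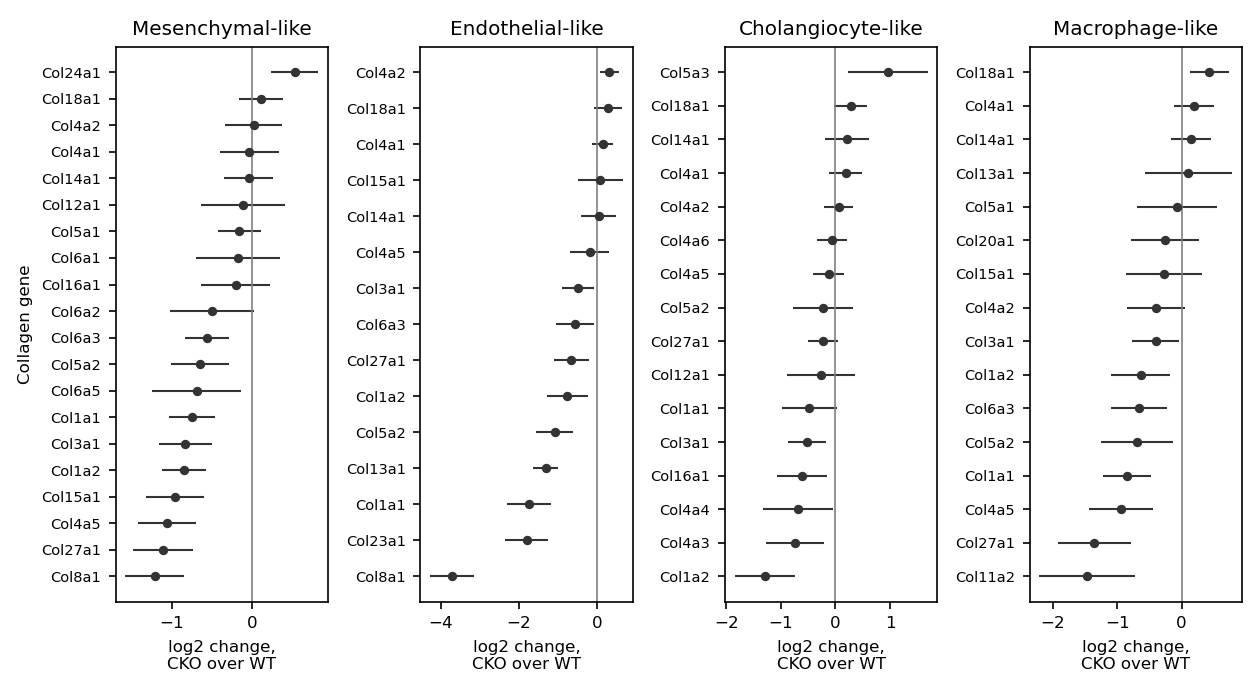
Log2 change, CKO over WT, of the tested collagen genes in 4 classes of nuclei (points), with bars of 1 standard error from edgeR and a line at 0. Most points lie left of 0 in mesenchymal-like nuclei, Col8a1 is farthest from 0 in endothelial-like nuclei at -3.72, and no point passed an adjusted p of 0.05.

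Genes that act on collagen were read from 6 lists, and none of their members was called in any class. Of 20 genes that modify chains in the endoplasmic reticulum, 13 were tested in mesenchymal-like nuclei and 9 were below 0, with a median of -0.23. Plod2, a lysyl hydroxylase, had 44.1 and 57.4 CPM in CKO livers and 99.0 and 74.4 in WT livers (log2 change -0.76, edgeR adjusted p = 0.589). The cross-linking list of lysyl oxidases and their like had 5 of 7 tested, 4 below 0 and a median of -0.20. The propeptide processing list had 4 of 8 tested, 3 below 0 and a median of -0.37, and the small proteoglycan list 5 of 8, 3 below 0 and a median of -0.15. Of 10 collagen receptors 8 were tested and 5 were below 0, with a median of -0.18. Itga2, a chain of a collagen-binding integrin, had 12.5 and 11.5 CPM in CKO livers and 30.5 and 27.9 in WT livers (log2 change -1.11, edgeR adjusted p = 0.600). Of 6 collagen-cleaving proteases 2 were tested, and Mmp2, a gelatinase, had 9.60 and 11.5 in CKO livers and 27.0 and 18.6 in WT livers (log2 change -1.13, edgeR adjusted p = 0.627). The groups did not overlap for Plod2, Itga2 or Mmp2, all lower in both CKO libraries as were 27.3% of all genes. Such genes were 7 of the 13 modifiers, 2 of the 4 processing genes, 1 of the 5 cross-linkers, 1 of the 5 proteoglycans, 3 of the 8 receptors and 1 of the 2 proteases. In endothelial-like nuclei the medians of the 6 lists were between -0.09 and 0.30, against 0.01 for all genes.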

How the data were processed

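The values were the deposited matrices of UMI counts per gene and barcode, 10x 3' v3.1 chemistry per the labels' protocols, made with Cell Ranger 5.0.1 on mm10 per the submitters' processing notes. Whether intron reads were counted, and how barcodes were selected, is not given in the sources used here; 2 libraries hold exactly 16000. Barcodes with at least 500 genes were kept, the highest Scrublet scores were removed as doublets at 0.8% per 1000 barcodes of each library, and 2000 variable genes without collagens gave 30 components, 15 neighbours and 22 Leiden clusters at resolution 1 (scanpy 1.11.5, Python 3.11.15). A cluster was called X-like when at least 3 markers, each with at least 5 UMIs, stood 1.5 times above the 10% of barcodes with the fewest UMIs and above the other clusters. Counts were summed per library and class and tested with edgeR 4.0.16 (R 4.3.3; TMM scaling, filterByExpr, quasi-likelihood, no covariate), with DESeq2 1.42.0 as an alternative. With 2 libraries a group, an exact permutation test cannot go below p = 0.333. The scripts were checked on simulated data. Members, marker lists and collagen-related lists were chosen with earlier results of these data known. Genes were named by rule: in each tested class the 6 members with the smallest p and the 3 with the highest level, in each class the 3 highest members, the chains of the main collagen types, and of the lists the 3 genes with the smallest p. Alternatives were RLE scaling, scaling to the genes at least 3 times above low-UMI barcodes (class genes), no filter, thinning, doublets kept, 1000 UMIs, another resolution, each library left out and a replicate block. Depth limits the rare classes most, and intervals cover counting error only.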

Additional observations from a re-analysis of the deposited data

Results flagged for a closer look

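The matrices also list 7 added reporter or vector sequences that no comparison above uses, and 4 of them have any UMI. Neo-PIGCN21AN had 100 and 20 UMIs in the CKO libraries and 36 and 1 in the WT libraries, which is 2.63 and 1.63 CPM in CKO livers and 0.789 and 0.0719 in WT livers. It was listed because both CKO libraries lay above both WT libraries. EYFP had 20 and 39 UMIs in the CKO libraries and 265 and 8 in the WT libraries, and eGFPcre 5 and 4 UMIs in the CKO libraries and 54 and 0 in the WT libraries. WT replicate 1 thus holds more EYFP and eGFPcre UMIs than any other library, and it also has the most UMIs of all genes. Scaled to library totals, EYFP was at 0.526 and 3.18 CPM in CKO livers and 5.81 and 0.575 in WT livers. For eGFPcre the values were 0.132 and 0.326 CPM in CKO livers and 1.18 and 0 in WT livers.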

How the results depend on the processing

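No collagen was called in the fit used above, and the counts of calls moved as follows. Without a filter on low counts, 2 collagens and 143 genes were called in mesenchymal-like nuclei, 2 and 97 in endothelial-like, 1 and 17 in vessel-like, and 125, 109, 15, 7 and 3 genes in cholangiocyte-like, macrophage-like and stellate-like nuclei and endothelial sub-clusters 3 and 6. DESeq2 called 1, 1, 0, 2, 1 and 1 genes in mesenchymal-like, endothelial-like, cholangiocyte-like and macrophage-like nuclei, all kept barcodes and sub-cluster 3. The labels do not say that equal replicate numbers share an animal or a day, and deviations of same-numbered libraries correlated at 0.0819 to 0.515. With the replicate block, 1 collagen, Col8a1, and 3 genes were called in endothelial-like nuclei, 1 and 15 in vessel-like, and 34, 5, 20 and 3 genes in cholangiocyte-like, macrophage-like and stellate-like nuclei and sub-cluster 6. Thinning to the same total left 0 genes in cholangiocyte-like nuclei, and keeping doublets gave 31. In vessel-like nuclei RLE scaling called 1 collagen and 1 gene, and scaling to class genes 1 and 4, with 6 genes in sub-cluster 6. From CKO replicate 2 alone, 13 of the 23 placed members kept their highest class.

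Leaving out each library in turn, where a lone library is assumed to vary like the other group, gave 0 to 4 collagens in mesenchymal-like nuclei (the highest with CKO replicate 1 left out), 0 to 4 in endothelial-like (the highest with CKO replicate 2 left out), 0 to 1 in stellate-like and vessel-like and 0 to 0 elsewhere. All genes called ranged over 27 to 352, 0 to 412, 0 to 276, 0 to 398 and 0 to 2 in mesenchymal-like, endothelial-like, cholangiocyte-like and macrophage-like nuclei and all kept barcodes, and over 0 to 68, 3 to 84, 0 to 62, 1 to 52 and 0 to 42 in stellate-like and vessel-like nuclei and sub-clusters 3, 6 and 7. Log2 changes of shares ranged from -1.20 to -0.49 (mesenchymal-like), -3.59 to -1.06 (cholangiocyte-like), -1.15 to 0.29 (endothelial-like, above 0 when WT replicate 1 is left out) and -1.38 to 0.84 (macrophage-like, with -0.27 when WT replicate 2 is left out).

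The sign turned in these cases, and the cause was not tested. In mesenchymal-like nuclei Col14a1 was 0.16 scaled to class genes, 0.072 with doublets and 0.0074 at the finer resolution, and -0.24 to 0.16 as libraries were left out. In endothelial-like nuclei leaving out libraries gave -0.039 to 0.70 for Col18a1, -0.91 to 0.14 for Col27a1 and -0.062 to 0.32 for Col4a1. In cholangiocyte-like nuclei Col4a5 was 0.066 scaled to class genes, and leaving out libraries gave -8.55 to 0.50 for Col16a1 (no UMI in CKO replicate 2), -0.019 to 1.53 for Col5a3 and -0.15 to 0.10 for Col4a2. In macrophage-like nuclei it gave -0.29 to 0.36 for Col4a1 and -1.04 to 0.23 for Col3a1. Thinning moved the cholangiocyte-like collagen median to 0.31 over the collagens that then passed the filter. Over all kept barcodes 1 collagen was among the class genes, with 0.70 where it had been 0.52. Col8a1 ranged from -2.41 to -0.86 in mesenchymal-like and -9.15 to -3.27 in endothelial-like nuclei as libraries were left out, the lowest against a lone library with 0 UMIs, where the fitted value depends on the prior count, and Col13a1 from -1.56 to -0.89 in endothelial-like nuclei. The low depth of CKO replicate 2, with 89 mesenchymal-like and 31 cholangiocyte-like nuclei, limits what these comparisons can show.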
